A study of Mus musculus with 32 samples.

Results

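The BCL2 family decides whether the outer membrane of a cell's mitochondria stays closed or is opened, and 10 genes of this family were followed in the developing mouse forebrain. The genes are the survival factors Bcl2, Bcl2l1 and Mcl1, the effectors Bax and Bak1, and the BH3-only genes Bcl2l11, Bbc3, Pmaip1, Bid and Bad. They were taken by symbol from the count files, and each of the 10 was found once among 26331 named genes. RNA was sequenced from 32 libraries in 8 groups, of dorsal telencephalon at E12.5 (E for embryonic day) or cortex at E15.5. In the C57BL/6 background, the E12.5 groups were 3 wild type and 3 Kat6b-/- libraries, and the E15.5 groups 5 of either genotype. In a mixed FVBxBALB/c background, wild type and Tg(Kat6b) embryos, which carry extra Kat6b from a transgene, gave 4 libraries each at either age. KAT6B is a histone acetyltransferase. The mixed background was used because inbred Tg(Kat6b) mice do not survive, per the series' design text. Neither the deleted part of Kat6b nor the transgene's promoter is given in the sources used here.

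In healthy cells the survival proteins BCL2, BCL-XL (from Bcl2l1) and MCL1 hold the effectors BAX and BAK in check. BH3-only proteins such as BIM (Bcl2l11), PUMA (Bbc3) and NOXA (Pmaip1) bind the survival proteins or the effectors, and free BAX and BAK open the membrane, release cytochrome c and start the caspases. In the embryonic cortex the family sets the loss of progenitors and of young neurons. These are properties of the proteins, whereas the values here are RNA levels in bulk tissue. In bulk samples, fewer cells of a type and less RNA per cell cannot be told apart.

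The libraries held 10424813 to 49699656 counts each. Kat6b, the targeted gene, averaged 170 to 183 CPM (counts scaled to library size) in the 4 wild type groups and 547 and 659 CPM in the Tg(Kat6b) groups. In the libraries labelled Kat6b-/- it averaged 154 and 174 CPM, so the sum over the whole gene did not separate them from wild type, and it says nothing of the deleted part. All C57BL/6 libraries were sequenced in batch 2 and all FVBxBALB/c libraries in batch 1, so each genotype and age comparison lies within 1 batch. Replicate 5 of wild type and of labelled Kat6b-/- in C57BL/6 at E15.5 has a file whose column is named for an E12.5 sample, and the tissue label of the Kat6b-/- replicate 5 reads dorsal telencephalon. On the first principal component these libraries lay at 56.0 and 55.7, with the other E15.5 libraries, and results that change without them are given with both values. Kat6b-/- replicates 3 and 4 at E15.5 stood apart from the other 3 on the second component, at 39.8 and 40.0 against 16 to 20.6. Their summed markers of dorsal telencephalon were 1470 and 1440 CPM against 1900 to 2000 in the other 3, of diencephalon, midbrain and hindbrain 296 and 285 against 43.6 to 47.7, and of meninges 198 and 195 against 34.6 to 48.5. C57BL/6 wild type at E15.5 shared part of this. Its replicate 3 lay at 32.8 on the second component, with meningeal markers at 118 CPM. Markers of diencephalon, midbrain and hindbrain were at 268 CPM in its replicate 2 and 146 in replicate 3. Its dorsal telencephalon markers were at 1820 and 2050 CPM in these 2 libraries. By the labels, the 3 libraries of each C57BL/6 group at E12.5 come from 2 litters, with replicates 3 and 4 of both genotypes in 1 litter, so they are not fully independent. No litter is given for FVBxBALB/c. No dorsal telencephalon marker was at 0 in any group.

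The 250 bases upstream of a start site are shown for 4 members: Bcl2 and Bbc3, which were higher at E15.5, Bcl2l11, which was lower, and Bax, which passed no age test. The sequences are RefSeq promoters on GRCm38.p6, read 5′ to 3′ on the strand of the gene, with the motifs found in capitals. The Bcl2 window (chr1:106714291-106714540, minus strand) held none of the motifs searched. In the Bcl2l11 window (chr2:128125788-128126037, plus strand, not its only start site) capitals mark a FOXO site at -227 to -221 and CCAAT on the opposite strand at -57 to -53. In the Bbc3 window (chr7:16310011-16310260, plus strand, 1 of 3 start sites) they mark a FOXO site on the opposite strand at -167 to -161. In the Bax window (chr7:45466899-45467148, minus strand) they mark a p53 decamer at -201 to -192 and CACGTG at -9 to -4.
Bcl2: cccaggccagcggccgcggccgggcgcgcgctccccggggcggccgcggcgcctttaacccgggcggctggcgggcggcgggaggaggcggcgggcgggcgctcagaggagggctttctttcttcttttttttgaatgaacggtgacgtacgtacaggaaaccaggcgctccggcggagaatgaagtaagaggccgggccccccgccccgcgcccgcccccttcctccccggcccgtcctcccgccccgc
Bcl2l11: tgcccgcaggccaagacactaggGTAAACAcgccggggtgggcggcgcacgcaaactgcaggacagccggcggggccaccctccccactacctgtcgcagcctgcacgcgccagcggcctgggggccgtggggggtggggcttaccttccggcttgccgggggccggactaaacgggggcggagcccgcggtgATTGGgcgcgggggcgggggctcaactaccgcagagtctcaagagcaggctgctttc
Bbc3: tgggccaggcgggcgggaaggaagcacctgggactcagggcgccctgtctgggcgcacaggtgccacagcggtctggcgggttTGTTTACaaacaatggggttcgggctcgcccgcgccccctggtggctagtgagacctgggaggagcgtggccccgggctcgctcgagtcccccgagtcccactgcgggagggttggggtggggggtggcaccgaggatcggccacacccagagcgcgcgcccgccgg
Bax: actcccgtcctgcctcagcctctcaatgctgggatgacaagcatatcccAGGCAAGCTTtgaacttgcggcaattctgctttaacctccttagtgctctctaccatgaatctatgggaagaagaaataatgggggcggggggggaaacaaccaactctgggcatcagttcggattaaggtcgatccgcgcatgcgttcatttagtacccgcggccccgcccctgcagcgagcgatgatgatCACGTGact

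Of 15 such windows of 9 members (Pmaip1 was left out), the p53 decamer lay in 1, the FOXO site GTAAACA in 2, CACGTG in 2 and CCAAT in 4. Those with GTAAACA are the Bcl2l11 and Bbc3 windows shown, and the other windows of these genes did not hold it. The E2F sites TTTGGCGC and TTTCCCGC and the TATA box TATAAA were in none. Both strands were searched, no motif contains another, and neighbouring windows of Bbc3 share bases. Among 32851 windows of all genes, the p53 decamer lay in 7.13%, GTAAACA in 3.17%, CACGTG in 6.02%, CCAAT in 33.8%, TTTGGCGC in 0.417%, TTTCCCGC in 0.895% and TATAAA in 12.4%. A match describes letters and is not evidence of binding. The windows of Bcl2, Bcl2l11 and Bbc3 shown above were 74.8%, 72% and 72.4% G and C, against 54.0% for Bax and a median of 52.4% over all windows. Over the 15 windows the share ran from 47.6% (Bcl2l1) to 81.6% (Bbc3), with Mcl1 at 64.4%. A link between this share and the age changes was not tested.

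A group of 3 RNAs stood above the rest when CPM was divided by gene length in kb as the files give it. By this length Bax was the most abundant, at group means of 59.2 to 94.0 CPM per kb. In CPM, without length, Mcl1 stood above Bax, at group means of 163 to 185 against 51.4 to 81.7. Mcl1 lay at 46.7 to 53 and Bcl2l1 at 38.4 to 55.9 CPM per kb, and the 3 genes held 75.0% to 76.6% of the summed level of the 10 in every group. Mcl1 and Bcl2l1 did not differ beyond their spread in C57BL/6 wild type at E12.5, at 51.8 ± 3.08 and 45.1 ± 10.4 CPM per kb (SD, n = 3). In the same group Bak1 (17.9 ± 2.25) and Bad (15.2 ± 1.07) came next, followed by Bid, Bbc3 and Bcl2l11 between 4.96 and 5.40 CPM per kb, which overlapped. Bcl2, the founding member, was near the bottom at 3.48 ± 0.120, and Pmaip1 was lowest at 2.16 ± 1.08 CPM per kb.

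At E15.5 the order in C57BL/6 wild type differed: Bcl2l1 (55.9 ± 2.90, n = 5) stood above Mcl1 (49.5 ± 3.25), Bad (20.0 ± 1.38) above Bak1 (12.8 ± 1.71), and Bcl2 (5.43 ± 0.484) above Bcl2l11 (3.63 ± 0.300), all in CPM per kb. Levels between genes depend on the length used. With exon lengths of GENCODE M21 the Bax level in this group was 51.8 in place of 94.0 CPM per kb and Bcl2l1 29 in place of 55.9. Bad was 11.3 in place of 20.0 and Bid 4.32 in place of 8.11. Mcl1, at 50.5, then stood above Bcl2l1 and close to Bax, so the lead of Bax rests on the length used. The other groups were not recomputed with these lengths. Fold changes within a gene do not use the length.

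**Figure D1:**
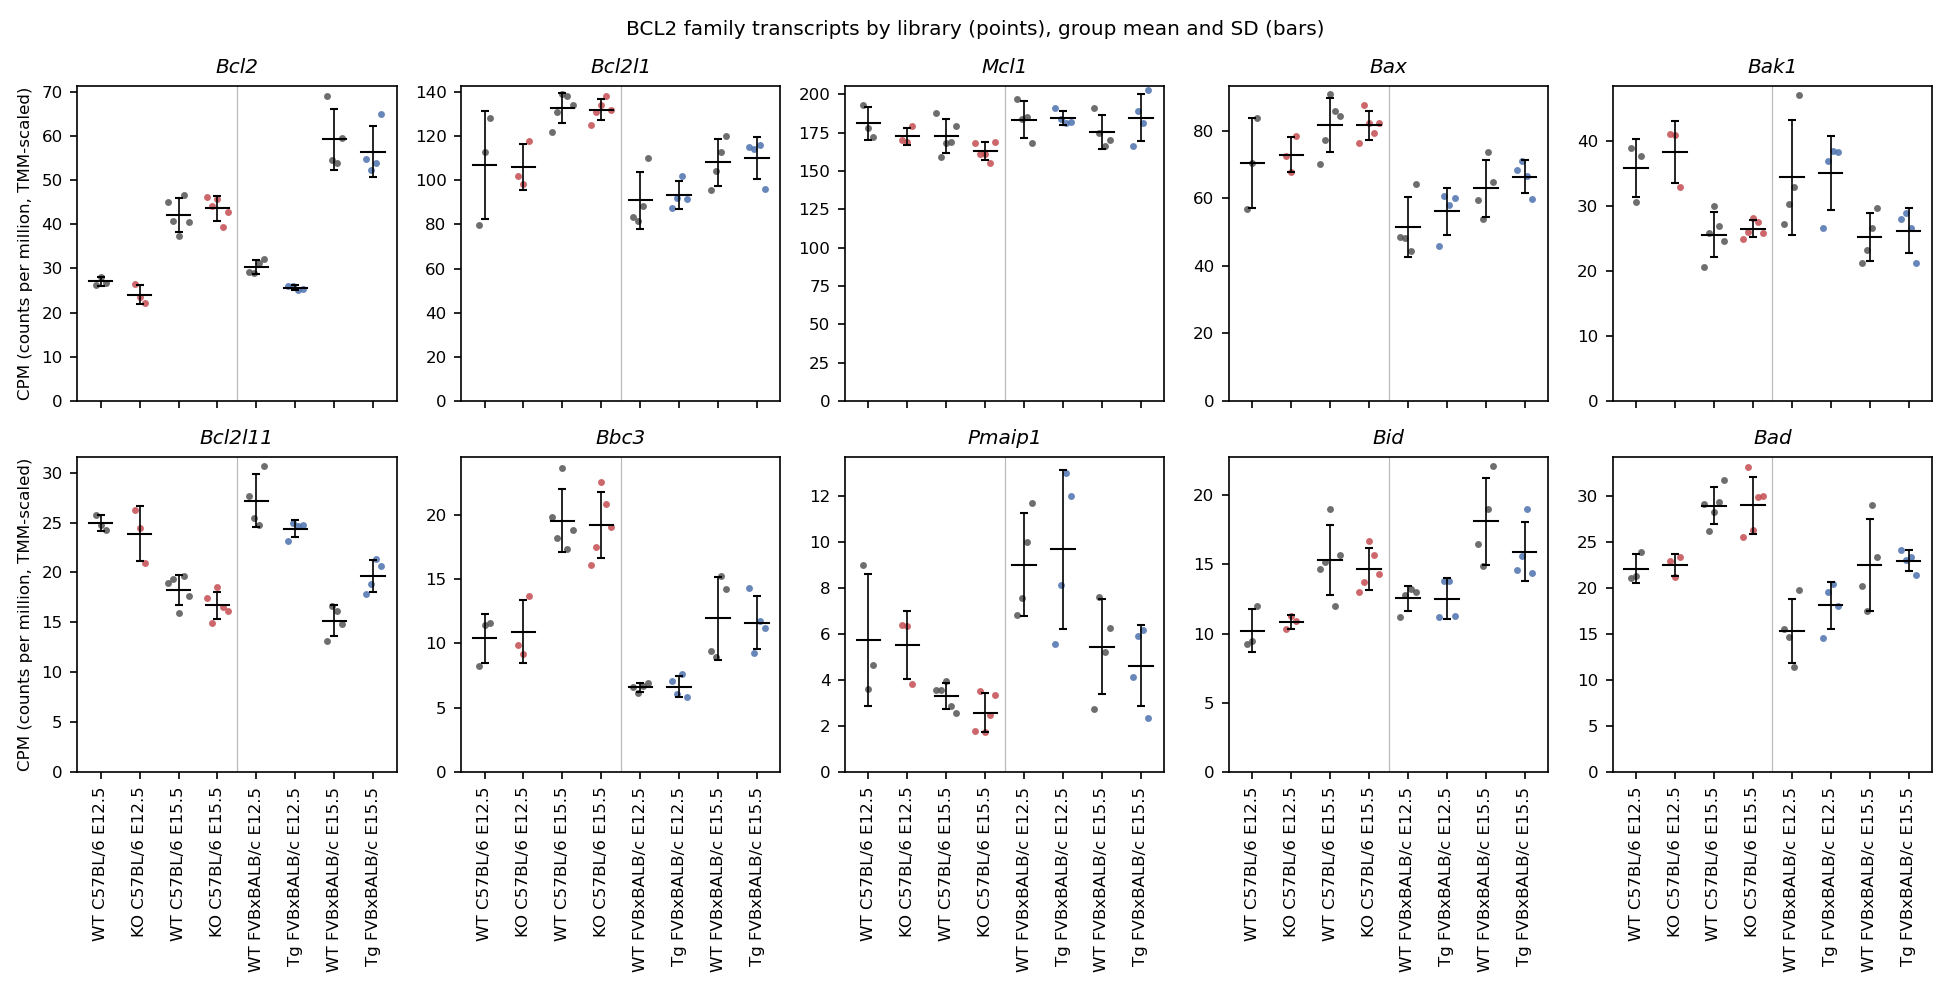
CPM of the 10 genes in every library (points), with group mean and SD (black), by genotype (WT wild type, KO labelled Kat6b-/-, Tg Tg(Kat6b)), background and age. Bcl2 sits between 22.2 and 32 CPM in the 14 libraries at E12.5 and between 37.3 and 68.9 in the 18 at E15.5. Over all libraries Mcl1 overlaps between the ages, at 168 to 197 and 155 to 203 CPM, but not within labelled Kat6b-/-.

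Age came with the widest differences in the family. In C57BL/6 wild type, 5 of the 10 genes rose from E12.5 to E15.5 (Bcl2, Bcl2l1, Bbc3, Bid and Bad) and 3 fell (Bak1, Bcl2l11 and Pmaip1). Mcl1 and Bax passed no test. Of all 16118 genes tested there by edgeR's quasi-likelihood test, 28.6% rose and 28.2% fell. The members' share of falls was near this background and that of rises larger. With only 10 genes, chosen with earlier results known, this excess was not tested and is not shown to be particular to the family. The members' median log2 fold change was 0.28, beside -0.0194 for all genes. Age and dissection, dorsal telencephalon at E12.5 and cortex at E15.5, cannot be told apart. Nothing in the labels says that an embryo was sampled more than once. The p-values treat the libraries as independent, although some C57BL/6 libraries at E12.5 share a litter.

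The same count was found in the libraries labelled Kat6b-/-, with 5 higher and 3 lower (29.4% of all genes rose and 27.0% fell there). 5 members rose and 2 fell in FVBxBALB/c wild type (25.1% of 15556 genes in each direction). In Tg(Kat6b) 3 rose and 2 fell (23.8% and 22.5% of all genes). Bcl2, Bbc3 and Bid rose and Bcl2l11 fell in 4 of 4 age comparisons. Bcl2l1 and Bad rose in 3, Bak1 and Pmaip1 fell in 3, and Mcl1 and Bax were called in none. Whether a gene's age effect differed between backgrounds was not tested. How many of all genes separated without overlap, between ages or between backgrounds, was not counted. The separations given below are thus not shown to be particular to these genes.

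**Figure D2:**
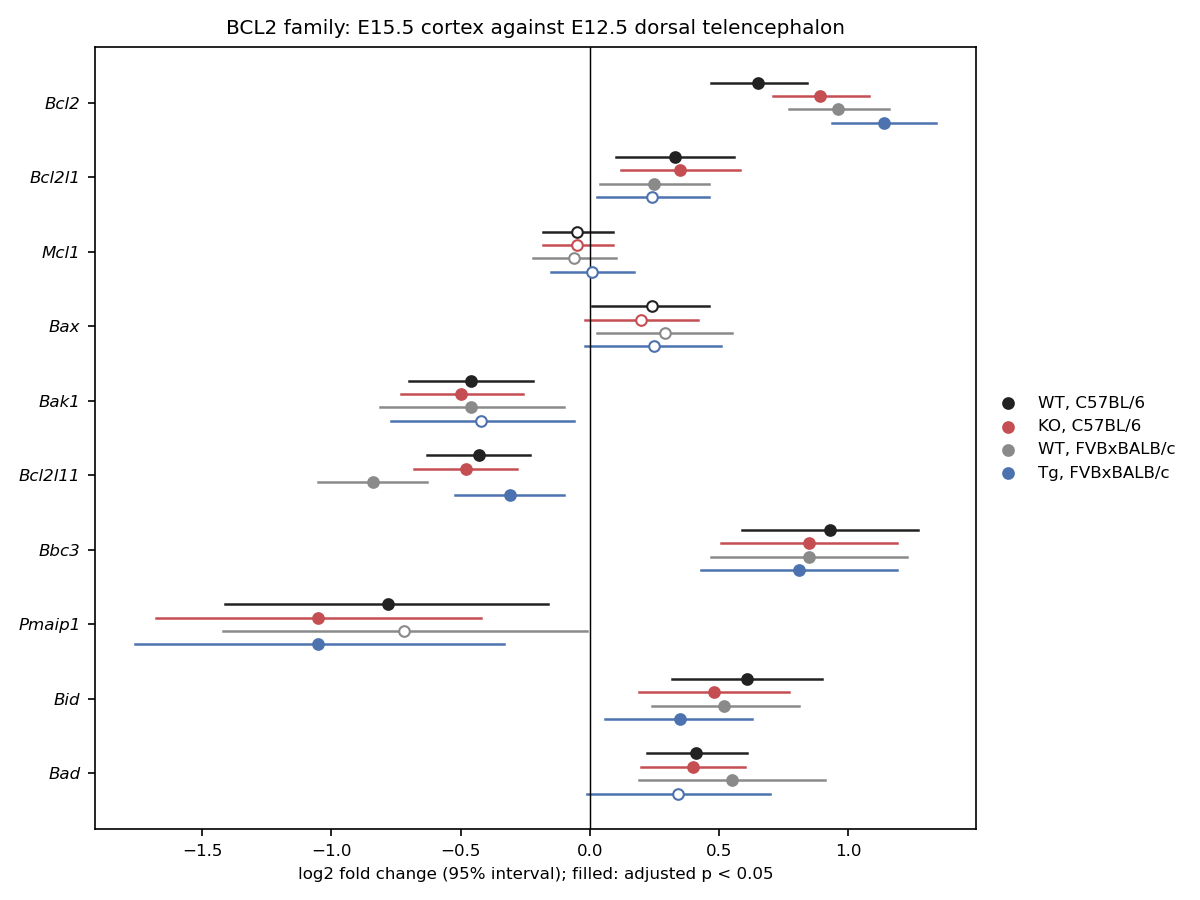
Log2 fold change of each gene from E12.5 to E15.5 (horizontal axis, with 95% intervals) in wild type and labelled Kat6b-/- of C57BL/6 and in wild type and Tg(Kat6b) of FVBxBALB/c, with filled points for an adjusted p below 0.05. Bcl2, Bbc3 and Bid lie to the right in each of the 4, Bcl2l11 to the left, and Mcl1 between -0.06 and 0.01.

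Among the survival genes, Bcl2, whose protein guards the mitochondrial membrane, had the clearest change with age. In C57BL/6 wild type it read 26.3, 28.1 and 26.7 CPM at E12.5 and 45.1, 40.8, 37.3, 46.6 and 40.4 CPM at E15.5. The libraries labelled Kat6b-/- gave 26.5, 23.5 and 22.2 CPM, then 46.2, 44.0, 45.7, 39.3 and 42.7 CPM. Every E15.5 library of this background stood above every E12.5 library. The log2 fold change was 0.65 (SE 0.0860, adjusted p = 7.43e-06) in wild type, a 1.57-fold rise, and 0.89 (SE 0.0868, adjusted p = 2.62e-07) in labelled Kat6b-/-. FVBxBALB/c wild type read 29.1, 28.9, 31.2 and 32 CPM at E12.5 and 68.9, 54.6, 53.9 and 59.4 CPM at E15.5. Tg(Kat6b) read 26.1, 26, 25.1 and 25.3 CPM, then 54.7, 52.2, 53.9 and 64.9 CPM. Again no library of the later age overlapped the earlier. The log2 changes were 0.96 (SE 0.0929, adjusted p = 4e-07) and 1.14 (SE 0.0935, adjusted p = 1.06e-07), the latter a 2.21-fold rise. Bcl2 passed under every alternative run in the 4 age comparisons.

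Bcl2l1, which encodes BCL-XL, rose less. It read 79.9, 113 and 128 CPM in C57BL/6 wild type at E12.5 and 122 to 139 CPM at E15.5, so the groups overlapped. The log2 change was 0.33 (SE 0.110, adjusted p = 0.0172), and 0.16 (adjusted p = 0.106) without wild type E12.5 replicate 1, the lowest library. With only the compared groups in the fit the adjusted p was 0.0543. In labelled Kat6b-/- it was 0.35 (adjusted p = 0.0123). That call ended without E12.5 replicate 1 (0.32, adjusted p = 0.0543), without E12.5 replicate 3 (0.30, adjusted p = 0.0652) or without E15.5 replicates 3 and 4 together (0.31, adjusted p = 0.0594). The change in FVBxBALB/c wild type was 0.25 (adjusted p = 0.0487), a call at the edge of the threshold, and it was kept in 10 of 25 alternatives. It ended without wild type E12.5 replicate 1, 2 or 3, wild type E15.5 replicate 2, 3 or 4, Tg(Kat6b) E12.5 replicate 2, 3 or 4 or Tg(Kat6b) E15.5 replicate 1, 2 or 3, at adjusted p of up to 0.146. In Tg(Kat6b) it was 0.24 (adjusted p = 0.0542), and it passed in 7 of 25 alternatives, among them without wild type E12.5 replicate 4, wild type E15.5 replicate 1, Tg(Kat6b) E12.5 replicate 3 or Tg(Kat6b) E15.5 replicate 4.

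Mcl1, a survival factor with a short-lived protein, was the steadiest of the 10. Its group means lay between 163 and 185 CPM, and its age changes were -0.05, -0.05, -0.06 and 0.01 on the log2 scale. All 4 of their 95% intervals lay between -0.22 and 0.17. None of these changes passed in any alternative. In labelled Kat6b-/- every E15.5 library still lay below every E12.5 library, at 155 to 169 and 169 to 179 CPM (rounded).

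Of the effectors, Bax passed no age test and Bak1 was called lower in 3 of 4 comparisons. Bax read 57, 70.4 and 83.7 CPM in C57BL/6 wild type at E12.5 and 70.3 to 90.9 CPM at E15.5, and the groups overlapped. Its log2 changes of 0.24 (adjusted p = 0.0660), 0.20 (adjusted p = 0.120), 0.29 (adjusted p = 0.0631) and 0.25 (adjusted p = 0.115) pointed up in 4 of 4 comparisons without passing. In C57BL/6 wild type Bax passed without E12.5 replicate 4 (0.38, adjusted p = 0.00568) or E15.5 replicate 1 (0.29, adjusted p = 0.0316). In FVBxBALB/c wild type it passed without wild type E12.5 replicate 4 (0.42, adjusted p = 0.00513), wild type E15.5 replicate 2 (0.36, adjusted p = 0.0314) or Tg(Kat6b) E12.5 replicate 1 (0.29, adjusted p = 0.0434).

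Bak1, the second effector, was lower at the later age. In C57BL/6 wild type it read 39.0, 30.7 and 37.8 CPM at E12.5 and 20.7, 25.8, 30.1, 26.9 and 24.7 CPM at E15.5, with no overlap. It fell by 0.46 on the log2 scale (SE 0.112, adjusted p = 0.00215), and in labelled Kat6b-/- by 0.50 (adjusted p = 0.00114). The FVBxBALB/c wild type groups, at 27.3, 30.3, 32.9 and 47.2 CPM and then 21.3 to 29.7 CPM, overlapped. There the change was -0.46 (SE 0.168, adjusted p = 0.0317), and -0.27 (adjusted p = 0.13) without E12.5 replicate 4, the highest library. In that library red cell markers summed to 9780 CPM against 2410 to 2670 in the other 3, meningeal markers to 1880 against 330 to 1150 and neuronal markers to 2910 against 4020 to 4590, and their part was not tested. The call also ended without E15.5 replicate 1 (adjusted p = 0.104), 2 (adjusted p = 0.0783) or 3 (adjusted p = 0.0511). With limma-voom and quality weights, or with only the compared groups in the fit, it was lost too, and 19 of 25 alternatives kept it. In Tg(Kat6b) the change was -0.42 (adjusted p = 0.0513), and it passed in 9 of 25 alternatives, among them without Tg(Kat6b) E12.5 replicate 1 (-0.53, adjusted p = 0.0128). It also passed without wild type E12.5 replicate 1 (adjusted p = 0.0413) or 4 (adjusted p = 0.0148).

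Within a library, the ratio of the effector Bax to Bcl2 does not depend on how libraries are scaled. Its geometric mean per kb was 23.0 (19.3 to 28.0) at E12.5 and 17.3 (13.9 to 21.7) at E15.5 in C57BL/6 wild type, and 15 (12.7 to 18) and 9.47 (7.71 to 12.2) in FVBxBALB/c wild type. In Tg(Kat6b) it was 19.4 and 10.5. The ratio was lower at the later age in each of the 4 genotype and background groups, and the ranges overlapped in C57BL/6 wild type. Bax to Bak1 went the other way, from 4.49 (3.37 to 5.28) to 7.37 (6.90 to 7.86) in C57BL/6 wild type and from 3.48 (3.11 to 4.11) to 5.77 (5.03 to 6.47) in FVBxBALB/c wild type, without overlap. Bax to Bcl2l1 stayed between 1.54 and 1.87 in all group means. Ratios were not tested.

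**Figure D3:**
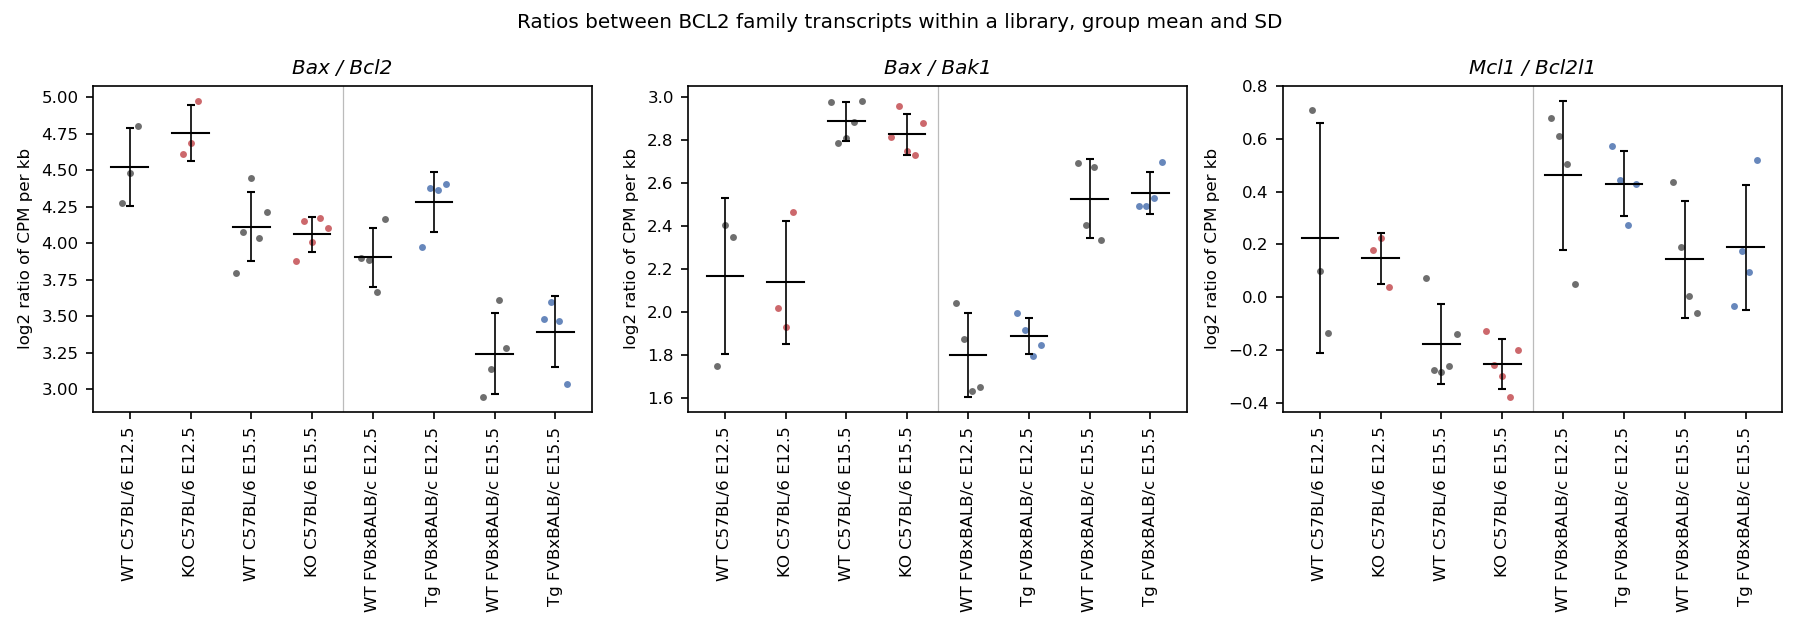
Log2 ratio of CPM per kb within each library (points), with group mean and SD (black), for Bax to Bcl2, Bax to Bak1 and Mcl1 to Bcl2l1 over the 8 groups. Bax to Bcl2 averages 4.52 at E12.5 and 4.11 at E15.5 in C57BL/6 wild type, and Bax to Bak1 2.17 and 2.88.

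The BH3-only genes split by member. Bcl2l11, which encodes BIM, read 25.8, 24.8 and 24.2 CPM in C57BL/6 wild type at E12.5 and 18.9, 19.3, 15.9, 19.6 and 17.6 CPM at E15.5. Labelled Kat6b-/- libraries read 26.3, 24.4 and 20.9 CPM, then 17.4, 14.9, 18.5, 16.5 and 16.1 CPM. Neither genotype overlapped between the ages. The falls were 0.43 (SE 0.0952, adjusted p = 0.000954) and 0.48 (SE 0.0952, adjusted p = 0.000391) on the log2 scale, that is, to 0.741 and 0.717 of the earlier level. FVBxBALB/c wild type read 27.7, 25.5, 24.8 and 30.7 CPM at E12.5 and 13.1, 16.6, 16.1 and 14.8 CPM at E15.5. It fell by 0.84 (SE 0.0999, adjusted p = 3.57e-06), to 0.559 of the earlier level. Tg(Kat6b), at 23.1, 25.0, 24.6 and 24.8 CPM and then 17.8, 18.8, 21.3 and 20.6 CPM, fell by 0.31 (SE 0.0988, adjusted p = 0.0167). Without Tg(Kat6b) E15.5 replicate 1 this last value was -0.27 (adjusted p = 0.0558).

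Bbc3, which encodes PUMA, a target of p53, moved opposite to Bcl2l11. It read 8.20, 11.4 and 11.6 CPM in C57BL/6 wild type at E12.5 and 19.8, 18.2, 23.6, 17.3 and 18.8 CPM at E15.5. FVBxBALB/c wild type read 6.62, 6.10, 6.69 and 6.91 CPM, then 9.40, 8.90, 15.2 and 14.2 CPM. The ages did not overlap within any genotype. The rises were 0.93 (SE 0.161, adjusted p = 0.00011), 0.85 (SE 0.16, adjusted p = 0.000237), 0.85 (SE 0.179, adjusted p = 0.000845) and 0.81 (SE 0.180, adjusted p = 0.00148), or 1.91-, 1.80-, 1.80- and 1.75-fold. These are in the order C57BL/6 wild type, labelled Kat6b-/-, FVBxBALB/c wild type and Tg(Kat6b). Bbc3 passed in every alternative run of these 4 comparisons.

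Pmaip1, which encodes NOXA, the partner of MCL1, had 24 to 589 counts per library. Per kb it was the lowest member in 6 of the 8 groups. At E12.5 in FVBxBALB/c wild type it lay at 3.39 beside 3.33 CPM per kb for Bbc3. In Tg(Kat6b) at E12.5 it lay at 3.64, beside 3.35 for Bbc3 and 3.3 for Bcl2, the lowest there. In C57BL/6 wild type at E12.5 it read 9.01, 3.58 and 4.64 CPM, and 2.56 to 3.94 CPM at E15.5, so the groups overlapped. The log2 change of -0.78 (SE 0.297, adjusted p = 0.0327) was -0.29 (adjusted p = 0.424) without the highest library, E12.5 replicate 1. In that library meningeal markers summed to 1300 CPM against 411 and 556 in the other 2 and neuronal markers to 2970 against 4180 and 3970, and their part was not tested. It was -0.73 (adjusted p = 0.0658) without E15.5 replicate 4 and -0.70 (adjusted p = 0.0757) without E15.5 replicate 5. Without both C57BL/6 replicates 5 at E15.5, whose labels disagree, it was -0.70 (adjusted p = 0.0784). The call also ended with limma-voom (-0.66, adjusted p = 0.0727), with quality weights added (-0.40, adjusted p = 0.161) and with the replicate block (-0.60, adjusted p = 0.193). In labelled Kat6b-/- it fell by 1.05 (SE 0.298, adjusted p = 0.00616), from 6.40, 6.33 and 3.81 CPM to 1.74 to 3.52 CPM, without overlap.

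In FVBxBALB/c wild type the Pmaip1 change of -0.72 (adjusted p = 0.0843) did not pass, except without E15.5 replicate 2 (-0.93, adjusted p = 0.0468). In Tg(Kat6b) it fell by 1.05 (SE 0.338, adjusted p = 0.0181). That call ended without E12.5 replicate 3 (-0.88, adjusted p = 0.0602), E12.5 replicate 4 (-0.92, adjusted p = 0.0535), E15.5 replicate 1 (-0.99, adjusted p = 0.0503) or E15.5 replicate 4 (-0.84, adjusted p = 0.0550), and with limma-voom (-0.95, adjusted p = 0.0552). The ratio of Pmaip1 to Mcl1 per kb was 0.0386 at E12.5 and 0.0249 at E15.5 in C57BL/6 wild type, so Mcl1 RNA exceeded Pmaip1 RNA in every group.

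Bid, which caspase 8 cleaves, read 9.21, 9.43 and 12 CPM in C57BL/6 wild type at E12.5 and 14.7, 15.2, 19.0, 12 and 15.7 CPM at E15.5. It rose by 0.61 (SE 0.139, adjusted p = 0.00120) there, 0.48 (adjusted p = 0.00699) in labelled Kat6b-/-, 0.52 (adjusted p = 0.00402) in FVBxBALB/c wild type and 0.35 (adjusted p = 0.0440) in Tg(Kat6b). The labelled Kat6b-/- value was 0.36 (adjusted p = 0.0539) without E15.5 replicates 3 and 4 together, and 0.52 (adjusted p = 0.0515) with the replicate number as a block. The Tg(Kat6b) value stayed called in 15 of 25 alternatives. It ended without Tg(Kat6b) E15.5 replicate 3 (0.25, adjusted p = 0.169) or 2 (adjusted p = 0.0720), without Tg(Kat6b) E12.5 replicate 1 (0.30, adjusted p = 0.105) or 4 (0.30, adjusted p = 0.119), and without wild type E12.5 replicate 2 or 3 or E15.5 replicate 3 (adjusted p = 0.0551, 0.0528 and 0.0535).

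Bad, whose protein is kept inactive by growth factor signalling, read 21.1, 21.3 and 23.9 CPM in C57BL/6 wild type at E12.5 and 26.2 to 31.8 CPM at E15.5, without overlap. It rose by 0.41 (SE 0.0942, adjusted p = 0.00124), 0.40 (SE 0.0939, adjusted p = 0.00159) and 0.55 (SE 0.169, adjusted p = 0.0122) in the first 3 groups in the order above. The last of these was 0.40 (adjusted p = 0.0618) without wild type E15.5 replicate 3. In Tg(Kat6b) the change was 0.34 (adjusted p = 0.106), although its 4 libraries at E15.5 all stood above those at E12.5.

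Reads that 2 genes can share limit some of these values, since the library kit does not mark strand. In GENCODE M21, 524 exonic bases of Bad, 20.5% of its exons, lie under the opposite-strand gene Gpr137. Gpr137 had 239 to 1638 counts per library and rose with age by 0.46, 0.35, 0.42 and 0.46, close to Bad. For Bid, 628 bases (17.7%) lie under Bcl2l13, which fell by 0.52, 0.46, 0.46 and 0.46 where Bid rose. For Bak1, 614 bases (25.5%) lie under Ggnbp1, whose 16 to 130 counts were few beside the 217 to 2381 of Bak1. How the authors' counting treated shared bases is not given in the sources used here.

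Summed markers of several cell types differed between the ages in the same libraries. The summed level of 10 markers of apical progenitors, the dividing cells at the ventricle, was 3630 to 5770 CPM at E12.5 and 2370 to 3620 CPM at E15.5. For 10 markers of postmitotic neurons it was 2910 to 5200 and 7880 to 10600 CPM. Red cell markers (11 found) were at 1370 to 9780 and 170 to 491 CPM, and meningeal markers at 229 to 2090 and 34.6 to 198 CPM. Markers of diencephalon, midbrain and hindbrain were at 122 to 772 (median 339) and 38 to 296 (median 57) CPM. Microglial markers were at 31.4 to 57.4 and 46.5 to 69.0 CPM. The part of these differences in the age differences of the 10 genes was not tested.

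Against this, the Kat6b genotype came with no called difference in the family. By edgeR's quasi-likelihood test, 0 of the 10 genes passed in labelled Kat6b-/- at E12.5 (0.00620% of all 16118 genes tested were called) and 0 of 10 at E15.5 (0% of 16118). In Tg(Kat6b) 0 of 10 passed at E12.5 and 0 of 10 at E15.5 (0.0129% of 15556 genes at each age). The differences of the genotype effect between the ages gave 0 of 10 called in either background (0% of 16118 and 0% of 15556 genes). Across all genes, 842, 456, 1039 and 346 had an unadjusted p below 0.05 in the 4 genotype comparisons in that order, and 438 and 628 in the differences. With DESeq2, limma-voom, either of the blocks or any library left out, the number of members called remained 0. Before adjustment 0 of 10 members had a p below 0.05 in labelled Kat6b-/- at either age, 1 (Bcl2) in Tg(Kat6b) at E12.5 and 1 (Bcl2l11) at E15.5. A member count of 0 is near the background in each comparison. Summed levels of 8 dorsal telencephalon markers were 1450 to 1990 CPM in labelled Kat6b-/- and 2040 to 2090 CPM in wild type at E12.5, with 1440 to 2000 and 1820 to 2220 CPM at E15.5. Their part in the genotype values was not tested.

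The sizes that the data allow for labelled Kat6b-/- were small for abundant members. Mcl1 changed by -0.07 at both ages, with 95% intervals of -0.23 to 0.08 and -0.19 to 0.04, and Bcl2l1 by -0.02 (-0.28 to 0.24) and 0.00 (-0.20 to 0.20). Bax, the main effector RNA, changed by 0.04 (-0.20 to 0.29) and 0.01 (-0.19 to 0.20). For Bcl2 the change at E12.5 was -0.18 (-0.38 to 0.02, adjusted p = 0.881), from 27.0 ± 0.933 CPM (SD, n = 3) in wild type to 24.1 ± 2.17 CPM, and 0.06 (-0.09 to 0.22) at E15.5. The difference between these Bcl2 values was 0.24 (SE 0.119, adjusted p = 1). Pmaip1, with few counts, was the least certain, at -0.34 (-0.91 to 0.24) at E15.5.

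In Tg(Kat6b), Bcl2l11 at E15.5 and Bcl2 at E12.5 did not overlap wild type, but neither difference passed adjustment. How many of all 15556 genes separated in this way was not counted, so the separation is not shown to be particular to these genes. Bcl2l11 at E15.5 read 17.8 to 21.3 CPM in Tg(Kat6b) and 13.1 to 16.6 CPM in wild type, so all 4 Tg(Kat6b) libraries were above all 4 controls. The log2 difference was 0.38 (SE 0.102, 95% interval 0.16 to 0.59), 1.30-fold, at an unadjusted p of 0.00184 and an adjusted p of 1 by edgeR. At E12.5 the Bcl2l11 difference was -0.15 (-0.36 to 0.05), and the difference between the ages was 0.53 (SE 0.140, interval 0.23 to 0.83, unadjusted p = 0.00157, adjusted p = 1 by edgeR). This interaction also compares the age changes of -0.31 in Tg(Kat6b) and -0.84 in wild type. The dorsal telencephalon markers summed to 2240 to 2880 CPM in Tg(Kat6b) and 2000 to 2360 CPM in wild type at E15.5, and their part was not tested. Bcl2 at E12.5 read 25.1 to 26.1 CPM in Tg(Kat6b) and 28.9 to 32 CPM in wild type, a difference of -0.24 (SE 0.0922, interval -0.44 to -0.05, unadjusted p = 0.0187, adjusted p = 0.724 by edgeR), and -0.06 (-0.26 to 0.14) at E15.5. The other members' groups overlapped at both ages, with changes from -0.23 (Pmaip1 at E15.5) to 0.25 (Bad at E12.5).

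**Figure D4:**
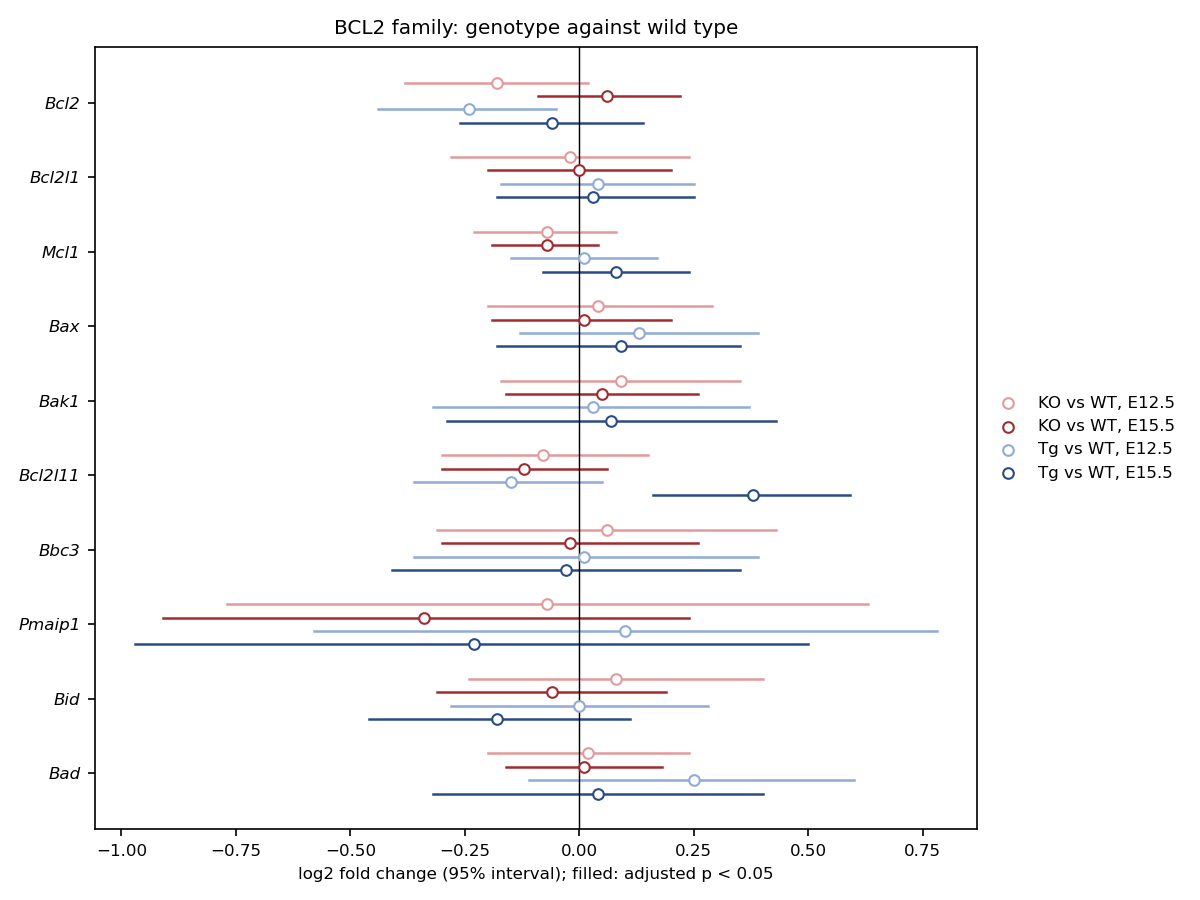
Log2 fold change of each gene with 95% intervals for labelled Kat6b-/- and for Tg(Kat6b) against their wild type at E12.5 and E15.5. No point is filled, so none had an adjusted p below 0.05. Bcl2l11 in Tg(Kat6b) at E15.5 lies at 0.38 and Bcl2 in Tg(Kat6b) at E12.5 at -0.24.

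Wild type libraries of the 2 backgrounds differed in several members. Background and sequencing batch are the same split here and cannot be told apart, so these are differences between the libraries. At E12.5, FVBxBALB/c was lower in Bax, Bbc3 and Bad and higher in none (7.19% of 16399 genes were lower and 5.59% higher). At E15.5 it was lower in Bcl2l1, Bax, Bcl2l11, Bbc3 and Bad and higher in Bcl2 (11.3% lower and 13.9% higher). The BH3-only gene Bbc3 had the largest called difference at both ages, 8.20 to 11.6 CPM against 6.10 to 6.91 CPM at E12.5 (-0.66, SE 0.179, adjusted p = 0.0148) and 17.3 to 23.6 against 8.90 to 15.2 CPM at E15.5 (-0.72, SE 0.161, adjusted p = 0.00159), with no overlap.

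Bcl2 at E15.5 read 37.3 to 46.6 CPM in C57BL/6 and 53.9 to 68.9 CPM in FVBxBALB/c wild type, a 1.41-fold difference (log2 0.49, SE 0.0789, adjusted p = 3.93e-05). Bcl2 and Bbc3 at E15.5 were called in every alternative run. Bax differed by -0.45 (SE 0.125, adjusted p = 0.0166) at E12.5 and -0.38 (SE 0.112, adjusted p = 0.0139) at E15.5. Bad differed by -0.52 (adjusted p = 0.0172) and -0.37 (adjusted p = 0.0411), Bcl2l1 by -0.29 (adjusted p = 0.0321) and Bcl2l11 by -0.26 (adjusted p = 0.0301) at E15.5. Gpr137, which overlaps Bad, differed by -0.43 (adjusted p = 0.0131) at E15.5. Summed progenitor markers at E15.5 were 2380 to 2690 CPM in C57BL/6 and 3210 to 3470 CPM in FVBxBALB/c wild type, and neuronal markers 8100 to 8800 and 9040 to 10300 CPM. Their part in these differences was not tested.

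Several of these background calls rested on few libraries. With only the groups compared in the fit, 0 members were called at E12.5. The E12.5 calls of Bax, Bbc3 and Bad all ended without C57BL/6 replicate 4 (-0.30, -0.57 and -0.46, adjusted p = 0.202, 0.0986 and 0.105). Those of Bax and Bbc3 also ended without C57BL/6 replicate 3 (adjusted p = 0.0518 and 0.0795), and those of Bax and Bad without FVBxBALB/c replicate 3 (adjusted p = 0.0690 and 0.0831). Without C57BL/6 replicate 1, Bcl2l1 (-0.40, adjusted p = 0.00770) and Pmaip1 (1.15, adjusted p = 0.0356) were also called at E12.5, and Bcl2l1 also without FVBxBALB/c replicate 4 (-0.33, adjusted p = 0.0333).

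At E15.5 the Bax call ended without FVBxBALB/c replicate 2 (-0.30, adjusted p = 0.0728). Without both C57BL/6 replicates 5, whose labels disagree, 4 members were called in place of 6, since Bcl2l1 (adjusted p = 0.0623) and Bad (adjusted p = 0.102) dropped out. Bcl2l1 was also lost without C57BL/6 replicate 3, 4 or 5 or FVBxBALB/c replicate 1 or 2, at adjusted p of up to 0.128. Bad was lost with the replicate block, and without C57BL/6 replicate 1, 3, 4 or 5 or FVBxBALB/c replicate 1, 2 or 4, at adjusted p of up to 0.200. Bcl2l11 was lost without C57BL/6 replicate 1, 2 or 4 or FVBxBALB/c replicate 1 or 4, at adjusted p of up to 0.141. The Bcl2l11 call also ended with limma-voom, with only the groups compared in the fit and with the replicate block. Pmaip1 was called without FVBxBALB/c replicate 1 (0.95, adjusted p = 0.0395).

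**Figure D5:**
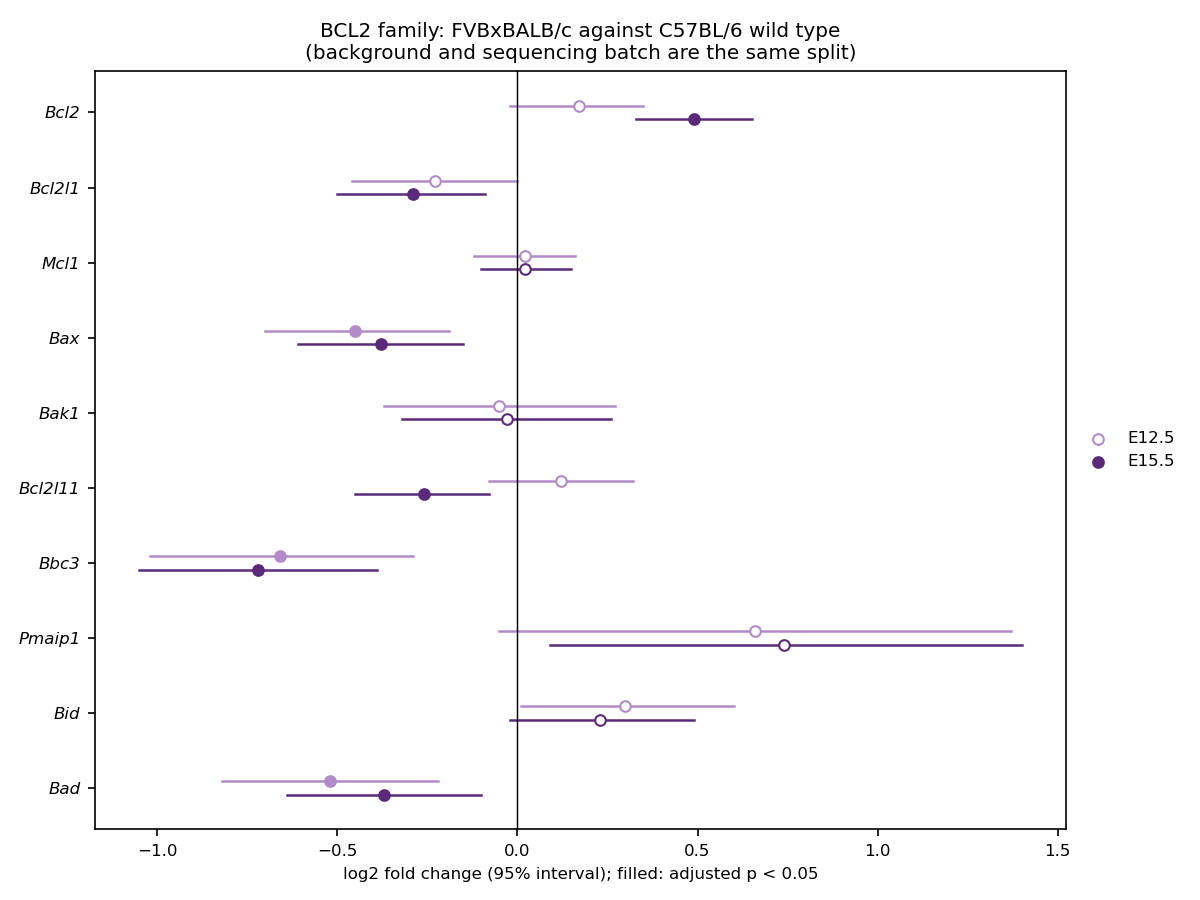
Log2 difference of FVBxBALB/c from C57BL/6 wild type for each gene at E12.5 and E15.5, with 95% intervals and filled points for an adjusted p below 0.05. Bbc3 lies at -0.66 and -0.72, and Bcl2 is on the higher side at 0.49 at E15.5.

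Outside the 10 genes, 14 further family genes were examined, of which 9 passed the filter on low counts in every fit. Bcl2l10, Bcl2l14 and the Bcl2a1 copies Bcl2a1a, Bcl2a1b and Bcl2a1d had at most 9 counts in any library. With age, 2 of the 9 rose and 3 fell in C57BL/6 wild type (28.6% of all genes rose and 28.2% fell). In FVBxBALB/c wild type 3 rose and 3 fell (25.1% of all genes in each direction). These counts are near the shares of all genes. Hrk, a BH3-only gene of neurons, rose from 4.69 ± 2.25 CPM (SD, n = 3) to 16.5 ± 1.81 CPM (n = 5) in C57BL/6 wild type, by 1.85 (SE 0.227, adjusted p = 3.64e-06), and by 1.64 (SE 0.237, adjusted p = 2.57e-05) in FVBxBALB/c wild type. Bcl2l12 fell from 21.5 ± 1.82 to 7.04 ± 0.933 CPM, by 1.58 (SE 0.125, adjusted p = 4.5e-08) in C57BL/6 and by 1.14 (SE 0.175, adjusted p = 4.7e-05) in FVBxBALB/c wild type.

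Bcl2l13 fell by 0.52 and 0.46 in the C57BL/6 and FVBxBALB/c wild types, and Bok, an effector-like gene, rose by 0.40 and 0.48. Bik, with 1 to 41 counts per library, fell by 2.20 in C57BL/6 wild type (SE 0.401, adjusted p = 0.000183) and changed by -1.14 (adjusted p = 0.0802) in FVBxBALB/c wild type. In FVBxBALB/c wild type Bmf, a BH3-only gene, fell by 0.65 and Bnip3l, which serves the removal of mitochondria, rose by 0.46. In C57BL/6 wild type they gave -0.29 (adjusted p = 0.0865) and 0.18 (adjusted p = 0.0661). Bik, Bmf and Bnip3l were not tested for a difference between backgrounds in their age effect. None of the 9 was called in a genotype comparison. Between the backgrounds at E15.5, Bmf was lower in FVBxBALB/c, with a log2 difference of -0.85 (SE 0.169, adjusted p = 0.000452), and Bnip3l higher by 0.23 (adjusted p = 0.0315).

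Downstream of BAX and BAK, 3 of 14 genes of the apoptosome and caspases rose and 6 fell with age in C57BL/6 wild type, and 2 rose and 6 fell in FVBxBALB/c. Of all genes 28.6% rose and 28.2% fell in C57BL/6 wild type and 25.1% did either in FVBxBALB/c wild type, and several counts of these lists are near those shares. Casp6, which encodes a caspase, fell by 0.67 (SE 0.108, adjusted p = 5.73e-05) and 0.63 (SE 0.135, adjusted p = 0.00104), and Aifm1, whose protein resides in mitochondria, by 0.36 and 0.45. Among inhibitors of apoptosis, 0 of 6 rose and 3 fell in C57BL/6 wild type, and 0 of 5 rose and 2 fell in FVBxBALB/c. Birc5, survivin, which is made in dividing cells, fell by 1.40 (SE 0.0881, adjusted p = 5.56e-09) and 1.06 (SE 0.125, adjusted p = 3.12e-06).

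Upstream of the family, 6 of 17 regulators rose and 3 fell in C57BL/6 wild type, and 6 rose and 1 fell in FVBxBALB/c. Mapk8, which encodes the kinase JNK1, rose by 0.85 (SE 0.106, adjusted p = 4.11e-06) and 0.86 (SE 0.106, adjusted p = 5.16e-06), and E2f1 fell by 1.01 and 0.83. Trp53 itself was not called. Of 14 p53 target genes outside the family, 2 rose and 7 fell, and 2 rose and 6 fell. Among them Gtse1 (-1.28 and -1.21), Btg2 (-0.72 and -0.54) and Pidd1 (-0.96 and -1.12) fell and Sesn1 rose (0.60 and 0.79). The 4 lists gave 0 called genes in the genotype comparisons and their differences. Between the backgrounds at E15.5, 4 of 14 apoptosome and caspase genes were higher and 2 lower, 3 of 6 inhibitors of apoptosis higher, 2 of 18 upstream regulators higher and 2 lower, and 2 of 15 p53 targets higher and 1 lower, beside 13.9% higher and 11.3% lower of all genes. Fbxw7, which marks MCL1 for breakdown, differed by 0.48 (adjusted p = 2.34e-05).

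Across the 32 libraries, which differ in age, background, batch and depth, the genes most like each member were found by Pearson's r of log2 CPM among 15447 genes, as a description. Bcl2 went with Nfib (0.970), Smim13 (0.968) and Kcnj10 (0.966), Bax with Grcc10 (0.969), Ppdpf (0.965) and Znhit1 (0.955), and Bbc3 with Fam171a2, March9 and Map3k10 (0.964 each). Bcl2l1 went with Asphd2 (0.949), Aes and Gnb2, and Bad with Gabarap (0.956), Tm2d2 and Arf5. For Bak1 they were Col26a1 (0.932), Arpc1b and Grhpr, and for Bcl2l11 Cand2 (0.918), Gpc6 and Slfn14. The lowest values were those of Bid with Pitpna (0.873), Ywhab and Spin2c, of Pmaip1 with Casp8 (0.861), Tram1 and H2-Q4, and of Mcl1 with Strn3 (0.848), Cdk13 and Rp2.

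Among the members themselves, after each library's group mean was taken off, Bax went with Bcl2l1 (r = 0.79) and with Bad (0.78). Mcl1 went against Bak1 (-0.68) and Bcl2l1 (-0.65), over 32 libraries. For Bcl2 and Bid the value was 0.73 over all libraries and -0.37 within groups. Libraries of 1 group share age, background and batch, and these values carry no test.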

How the data were processed

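RNA from embryonic mouse forebrain was sequenced on a NextSeq 500 after TruSeq RNA v2 preparation, per the labels' protocols. The authors deposited raw counts per gene for each library, made with bcl2fastq, featureCounts and the mm10 build, per the submitters' processing notes. The sources used here give no aligner, annotation or versions. Of 27179 rows, 848 named no gene (0.305% to 2.00% of a library's counts) and were left out. Other values deposited per gene were lengths in bases, used for CPM per kb.

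Counts were fitted with edgeR 4.0.16 in R 4.3.3 (TMM, quasi-likelihood test with robust estimates, a minimum count of 10 and total of 15), in separate fits for C57BL/6 (16118 genes), FVBxBALB/c (15556) and all libraries (16399, for backgrounds only). P-values were Benjamini-Hochberg adjusted over all genes of a fit and called below 0.05. CPM values were scaled over all 32 libraries, so they can differ slightly from the fitted fold changes. DESeq2 1.42.0, limma 3.58.1, other filters and scalings, blocks, and each library left out were the alternatives. The fit was tested on simulated data. No 2 libraries had identical counts, and the highest correlation between 2 libraries was 0.9943 (log2 counts). Libraries made from the same RNA would not be found by a search for identical counts.

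The named genes are the 10 members, Kat6b, other BCL2 family genes that passed, up to 4 genes with the smallest p in a comparison from each of the other lists, and the 3 genes most like each member. Some genes of these lists are not reported here. Trp53 and genes that overlap a member were named outside this rule, after their values were seen. The members and lists were chosen with earlier results of these data known. In C57BL/6, equal replicate numbers mark a shared litter, per the labels, and at E12.5 replicates 3 and 4 of both genotypes share litter 592. The correlation of the deviations of same-numbered libraries ranged from -0.363 to 0.602 over all such pairs. Intervals rest on the spread between libraries and treat the libraries as independent.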

Additional observations from a re-analysis of the deposited data

Results flagged for a closer look

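Of 60 sets of libraries examined for a library far from the rest (10 genes in the 6 groups of 4 or 5 libraries), 2 were picked out, where chance picks about 1 in 20. Bcl2l1 in Tg(Kat6b) at E15.5 was 96.1 CPM in replicate 4 and 114 to 116 CPM in the other libraries, a gap of 0.910 of the group's range. Bak1 in Tg(Kat6b) at E12.5 was 26.6 CPM in replicate 1 and 37.0 to 38.5 CPM in the others, a gap of 0.875 of the range.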

How the results depend on the processing

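No called member reversed its direction in 3450 comparisons of a member's value with an alternative setting; 87 calls were lost, 36 were gained and 3327 results stayed on their side of the threshold. The 4 genotype comparisons and the 2 differences gave 0 members called under each alternative. Members called with age ranged from 6 to 9 in C57BL/6 wild type (8 as reported) and from 6 to 9 in labelled Kat6b-/- (8). In FVBxBALB/c wild type, 7 were called, and 4 to 8 with each library left out (4 without wild type E15.5 replicate 3). In Tg(Kat6b), 5 were called, 8 with limma-voom and quality weights, and 3 to 7 with each library left out (3 without E12.5 replicate 4 or E15.5 replicate 1). Between backgrounds at E12.5, 3 were called, 5 with quality weights, 0 with only the compared groups in the fit, and 0 to 5 with each library left out. At E15.5, 6 were called, and 3 to 6 with each library left out (3 without C57BL/6 replicate 4 or FVBxBALB/c replicate 2). The cause of these shifts was not tested.

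With the replicate number as a block, 6, 7, 7 and 7 members were called with age in C57BL/6 wild type, labelled Kat6b-/-, FVBxBALB/c wild type and Tg(Kat6b), 3 and 4 between backgrounds, and 0 by genotype; the litter block also gave 0. Outside the C57BL/6 litters the libraries share only a number. Under this block Bak1 in C57BL/6 wild type gave -0.45 (adjusted p = 0.0577). Over all genes, 1, 0, 2 and 2 were called in the genotype comparisons in the order of the report, and up to 5, 7, 832 and 7 in the alternatives, the 832 with quality weights. The differences gave 0, and up to 1. Between backgrounds at E12.5, 2095 genes were called, 203 with only the compared groups and 5211 with quality weights. Pmaip1, with as few as 24 counts in a library, is the member that depth limits most.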
